A study of Mus musculus with 16 samples.

Results

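The 37 genes of the mouse mitochondrial chromosome were described in Sox2 RNA immunoprecipitates (IP) and their inputs. They were chosen by symbol, as the rows of the deposited table whose name starts with mt-, and make up 37 of its 53379 genes. They comprise 13 mRNAs, 2 rRNAs and 22 tRNAs. Sox2 is a transcription factor of pluripotent cells, and the libraries were made from male mouse embryonic stem cells (mESC) kept on gelatin with serum, LIF, PD0325901 and CHIR99021. RNA was crosslinked to protein either with formaldehyde (fRIP), which also joins partners that lie close to each other, or with UV light (UV-RIP), which joins protein to RNA in direct contact. Each crosslinker had 4 plates of cells, numbered as replicates 3 to 6, and each plate gave 1 IP library and 1 input library from the same lysate. The 16 libraries hold no mock IP, all come from cells with 1 cell type label, and ribosomal RNA was depleted before cDNA synthesis. All values below are shares of a library, so the amount of RNA recovered by the IP is not part of them.

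Mitochondrial DNA is transcribed from both strands into long RNAs, which are cut into rRNAs, tRNAs and mRNAs, largely at the tRNAs that lie between the other genes. The mRNAs encode subunits of the respiratory chain and of ATP synthase, and the rRNAs and tRNAs serve the ribosome inside the organelle. These RNAs are made and translated in the mitochondrial matrix, whereas Sox2 is known as a nuclear protein.

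The libraries held between 12456298 and 21211537 unique molecular identifiers (UMIs) on genes. UMIs are random tags that let copies of 1 captured fragment be counted as 1. Levels are given as UMIs per 1000000 UMIs of the library on genes (CPM), and 3 UMIs correspond to 0.141 to 0.241 CPM. Of 10 mESC markers, 8 were at 38.8 CPM (Zfp42) or more in every library and Dppa3 at 2.82 to 8.51 CPM, and Sox2 itself was listed at 0 UMIs in all 16, its gene lying within the body of Sox2ot. The 12 markers of fibroblasts and of differentiated germ layers reached at most 3.71 CPM (Pax6), and Lum and Sox1 were at 0 in every library. One ribosomal-RNA-like gene, Gm26917, took 18.4% to 22.3% of the UMIs of the UV-RIP IP libraries, 12.03% to 12.3% of their inputs and 5.44% to 12.4% of the fRIP libraries, and its part in the results was tested only through the library sizes.

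The tRNA genes that carry the results were mt-Tq and mt-Tp, which are coded on the minus strand, and mt-Tw and mt-Tt, which are coded on the plus strand. No other tRNA gene averaged 10 UMIs over the libraries. Their sequences are from GENCODE vM21 on GRCm38, whose gene identifiers and versions matched the deposited table for all 37 genes, and the capitals mark the anticodon, the bases that pair with the codon.
mt-Tq (glutamine, chrM:3772-3842, minus strand): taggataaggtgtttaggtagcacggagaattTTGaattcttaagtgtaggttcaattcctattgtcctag
mt-Tp (proline, chrM:15356-15422, minus strand): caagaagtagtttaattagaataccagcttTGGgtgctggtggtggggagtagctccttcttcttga
mt-Tw (tryptophan, chrM:4950-5016, plus strand): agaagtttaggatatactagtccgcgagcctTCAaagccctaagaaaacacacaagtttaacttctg
mt-Tt (threonine, chrM:15289-15355, plus strand): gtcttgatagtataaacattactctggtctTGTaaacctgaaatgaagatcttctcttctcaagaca

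Among the mRNAs the first difference was between genes that were counted and genes that were not. In every library, 7 mRNAs had 680 or more UMIs: mt-Nd1, mt-Nd2, mt-Nd4, mt-Nd5 and mt-Nd6, which encode subunits of complex I, mt-Cytb, which encodes cytochrome b of complex III, and mt-Co1, which encodes a subunit of complex IV. The other complex IV genes, mt-Co2 and mt-Co3, the ATP synthase genes mt-Atp6 and mt-Atp8, and the complex I gene mt-Nd4l never exceeded 2 UMIs in a library. A further complex I gene, mt-Nd3, lay between with 1 to 25 UMIs. The genes with few or no UMIs lie next to each other on the chromosome, from within mt-Co1 to within mt-Nd4.

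The same order of genes is found in the nuclear genome. At chr1:24611535-24616197 (GRCm38, minus strand), 7 unprocessed pseudogenes follow each other as the mitochondrial genes do, and their stretch of 4663 bases matches 4662 bases of the mitochondrial chromosome, chrM:6381-11042. The spacing between neighbours was the same for 5 of 6 pairs and differed by a single base for the other. Gm28661, Gm10925, Gm28437 and Gm10222 were identical over their full length to mt-Co2, mt-Atp6, mt-Co3 and mt-Nd4l, with 681, 678, 783 and 294 bases aligned. Gm28439 was identical to the first 876 bases of mt-Nd4, and Gm29216 matched the last 492 bases of mt-Co1 at 98.8% of positions. Gm28438 and mt-Nd3 differed at 1 of 345 bases, T3C, counted from 1 at the 5′ end of mt-Nd3 with its base first.

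A window of 60 bases from the pairs mt-Nd3 and Gm28438, mt-Co1 and Gm29216, and mt-Co2 and Gm28661 shows how little separates them, with capitals at the bases that differ. The window of mt-Nd3 is chrM:9459-9518, that of mt-Co1 chrM:6381-6440 and that of mt-Co2 chrM:7323-7382.
mt-Nd3: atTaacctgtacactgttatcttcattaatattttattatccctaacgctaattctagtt
Gm28438: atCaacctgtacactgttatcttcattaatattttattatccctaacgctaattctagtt
mt-Co1: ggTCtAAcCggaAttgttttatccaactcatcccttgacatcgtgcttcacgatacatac
Gm29216: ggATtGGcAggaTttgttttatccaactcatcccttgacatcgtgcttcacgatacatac
mt-Co2: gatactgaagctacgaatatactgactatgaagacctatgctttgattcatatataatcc
Gm28661: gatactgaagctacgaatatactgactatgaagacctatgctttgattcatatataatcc

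The reads were 34 bases long at each end by the study's methods, and the authors discarded reads that did not map uniquely. Each mitochondrial gene was therefore cut into all of its windows of 34 bases, and the share of windows that also occurs, letter for letter, in an annotated transcript of a nuclear chromosome was counted. It was 100% for mt-Co2, 99.9% for mt-Co3, 99.5% for mt-Atp6, 98.9% for mt-Nd4l and 98.1% for mt-Nd3. It was 62.7% for mt-Nd4, 61.2% for mt-Co1, 14.96% for mt-Nd5, 11.8% for mt-Nd2, 4.32% for mt-Nd6 and for mt-Cytb, and 0% for mt-Nd1. mt-Atp8 had 5.85% by this count, with no annotated pseudogene of it in the reference, although it lies inside the matched stretch. These shares are lower bounds, since only annotated transcripts could be searched.

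The 5 mRNAs with a share of 98.1% or more were all among the 6 with few or no UMIs, and those with a share of 62.7% or less, apart from mt-Atp8, were the 7 with many. The pseudogenes had few UMIs as well. Together they had 83 UMIs over the 16 libraries, with 0 to 5 per gene and library. Whether discarded reads account for the low counts was not tested, since reads were not analysed here. The plot of UMIs along the chromosome shows the matched stretch as a gap between mt-Co1 and mt-Nd4.

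**Figure D1:**
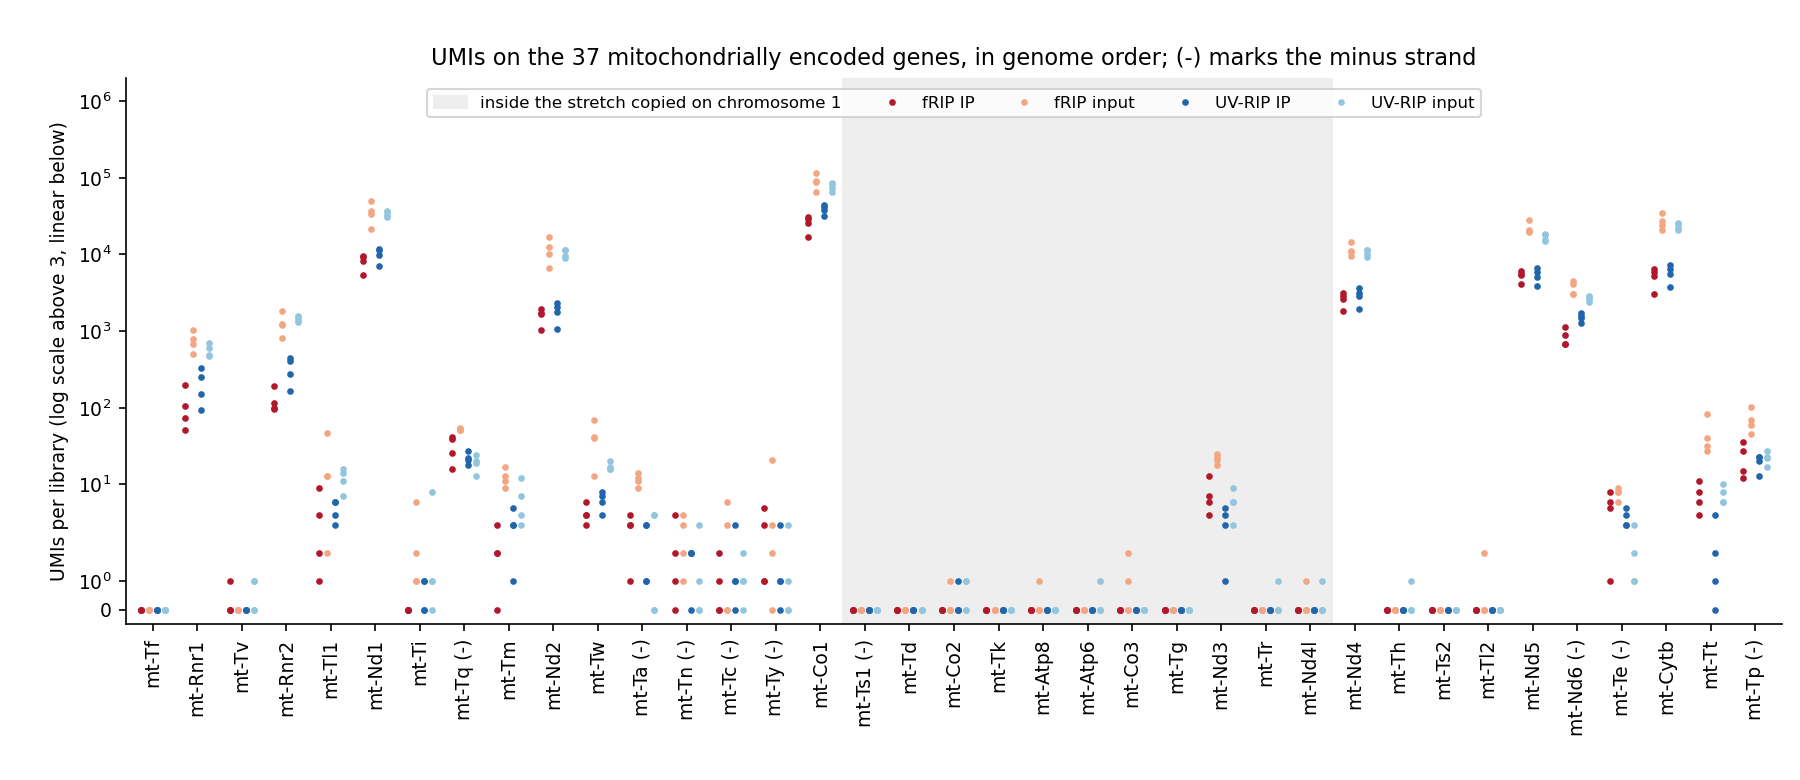
UMIs per library (vertical axis, logarithmic above 3 and linear below) for all 37 genes in the order in which they lie on the mitochondrial chromosome, with 1 point per library and colours for the 4 groups. The 11 genes wholly inside the stretch matched on chromosome 1 are shaded and stay at 2 UMIs or fewer in every library, apart from mt-Nd3 with 1 to 25.

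The tRNAs had few UMIs wherever they lie. Of the 22 tRNA genes, 12 reached 3 UMIs in at least 1 library, 10 did not, and 6 of these were at 0 in all libraries. The 5 tRNAs that touch the matched stretch (mt-Ts1, mt-Td, mt-Tk, mt-Tg and mt-Tr) had at most 1 UMI. Of the 17 outside it, 12 reached 3 UMIs and 5 did not, so the position relative to the stretch does not separate all of the absent tRNAs. Of all 22 tRNAs, 21 shared no window with a nuclear transcript. The search covered annotated transcripts only, and the 5 tRNAs that touch the stretch lie almost wholly in the gaps between its pseudogenes. The lack of a match for these 5 therefore does not show that they have no nuclear copy. A tRNA gene is 59 to 75 bases long, about as long as the reads of both ends of a fragment together.

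The inputs show the level of each RNA before the IP. Levels are compared between genes as CPM per 1000 bases of gene. In the UV-RIP input the order of the mRNAs was mt-Co1 with 3829 ± 282 (SD, n = 4), mt-Nd1 with 2721 ± 119, mt-Cytb with 1579 ± 89.7, mt-Nd2 with 770 ± 60.8, mt-Nd5 with 703 ± 47.5, mt-Nd4 with 584 ± 36.95 and mt-Nd6 with 398 ± 17.2 CPM per 1000 bases. Neighbours in this order did not overlap between libraries, except mt-Nd2 and mt-Nd5, and mt-Nd2 was above mt-Nd5 in each of the 4 libraries. In the fRIP input mt-Co1 had 4079 ± 825, mt-Nd1 2588 ± 740, mt-Cytb 1629 ± 294, mt-Nd5 854 ± 107, mt-Nd2 767 ± 256, mt-Nd4 585 ± 87.2 and mt-Nd6 493 ± 87.3 CPM per 1000 bases (SD, n = 4). Here all neighbours in the order of these 7 overlapped between libraries, except mt-Cytb and mt-Nd5. Within each library mt-Co1 was above mt-Nd1 and mt-Nd1 above mt-Cytb, whereas mt-Nd5 was above mt-Nd2 in 2 of 4 libraries.

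The levels were also expressed per window that has no nuclear match, and whether this is the better length to divide by was not tested. Per 1000 windows of 34 bases with no nuclear match, mt-Co1 had 10096 ± 743 CPM and mt-Nd4 1603 ± 101 in the UV-RIP input (SD, n = 4). mt-Cytb had 1699 ± 96.5, mt-Nd2 903 ± 71.2 and mt-Nd5 842 ± 56.8. In this input mt-Nd4 stood above mt-Nd2 and mt-Nd5 on this scale and below both per 1000 bases.

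The 2 rRNAs are the most abundant RNAs of mitochondria in untreated RNA, and here rRNA was depleted before cDNA synthesis. mt-Rnr1, the small subunit rRNA, had 54.6 ± 15.7 and mt-Rnr2, the large subunit rRNA, 55.8 ± 15.3 CPM per 1000 bases in the fRIP input (SD, n = 4). In the UV-RIP input mt-Rnr1 had 45.9 ± 9.89 and mt-Rnr2 70.7 ± 4.88. They stood below the 7 counted mRNAs in both inputs.

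In the sum over genes, the mitochondrial chromosome took 1.07% to 1.74% of the UMIs in the fRIP inputs and 1.24% to 1.43% in the UV-RIP inputs. It took 0.156% to 0.335% in the fRIP IP and 0.357% to 0.451% in the UV-RIP IP. The mRNAs made up 98.3% to 99.5% of these UMIs in every library. The mitochondrial total therefore follows the mRNAs, and within the mRNAs mt-Co1 was the largest part.

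All 3 classes were lower in the IP than in the input of the same lysate in each of the 4 pairs of both crosslinkers. In fRIP the summed mRNA level was 3322, 2694, 1550 and 2783 CPM in the IP of replicates 3 to 6 and 17227, 10475, 13915 and 14621 CPM in the inputs. The rRNAs had 21.9, 9.97, 8.91 and 8.13 CPM in the IP and 169, 160, 94.8 and 138 CPM in the inputs, and the tRNAs 6.26, 3.36, 2.03 and 6.14 CPM in the IP and 20.7, 22.4, 17.5 and 15.6 CPM in the inputs. No IP library reached the lowest input of its class. The IP of replicate 5 was the lowest for mRNAs and tRNAs, and the IP of replicate 3 was the highest for rRNAs by a wide margin.

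In UV-RIP the mRNAs had 3546, 4359, 4413 and 4465 CPM in the IP of replicates 3 to 6 and 13448, 12236, 14163 and 13831 CPM in the inputs. The rRNAs had 18.1, 29.2, 40.1 and 45.3 CPM in the IP and 179, 143, 151 and 150 CPM in the inputs. The tRNAs had 3.798, 4.54, 4.38 and 4.51 CPM in the IP and 6.42, 7.61, 7.87 and 7.23 CPM in the inputs. The groups did not overlap in any class, and for the tRNAs the gap was narrow.

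The classes were not lower to the same extent. The mean log2 ratio of IP to input over the 4 pairs of fRIP was -2.47 ± 0.50 for mRNAs, -3.61 ± 0.54 for rRNAs and -2.23 ± 0.83 for tRNAs (SD, n = 4). In UV-RIP it was -1.68 ± 0.18 for mRNAs, -2.31 ± 0.70 for rRNAs and -0.76 ± 0.068 for tRNAs (SD, n = 4). The rRNA ratio was below the mRNA ratio in all 4 pairs of both crosslinkers, with a mean log2 difference (rRNA minus mRNA) of -1.14 ± 0.87 for fRIP and -0.63 ± 0.59 for UV-RIP. The rRNA counts are what remained after rRNA depletion. Whether that step removed the same share in IP and input was not tested, which limits every rRNA ratio given here. The tRNA ratio was above the mRNA ratio in all 4 pairs of UV-RIP, by 0.92 ± 0.18, and in 3 of 4 pairs of fRIP, by 0.24 ± 0.79. The class values are given as descriptions, and an exact paired permutation test (two-sided) over 4 pairs cannot go below p = 0.125.

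**Figure D2:**
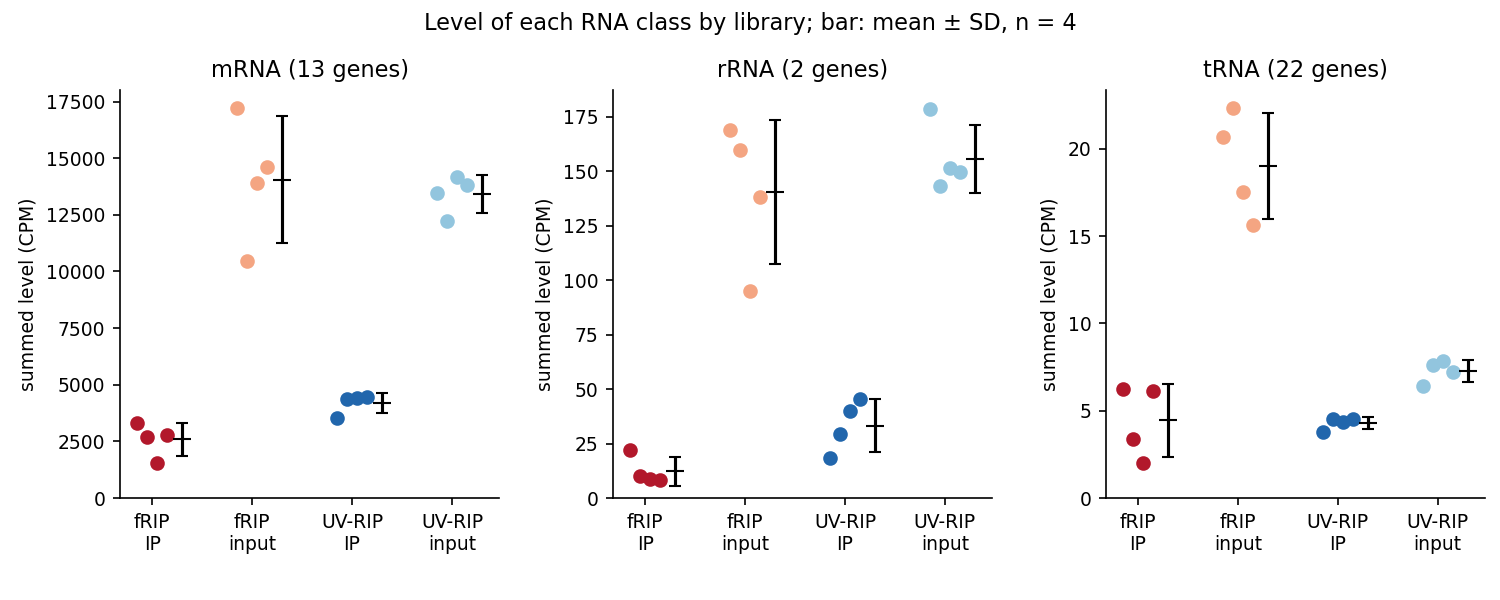
Summed level of the 13 mRNAs, the 2 rRNAs and the 22 tRNAs in CPM (vertical axes, linear and starting at 0), with 1 point per library and the mean ± SD of 4 libraries beside it. Input is above IP in each class and crosslinker, and the fRIP inputs lie wholly above the UV-RIP inputs for tRNAs and overlap with them for mRNAs and rRNAs.

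Gene by gene, the difference of IP from input was fitted with edgeR (quasi-likelihood) over the 22936 genes that reached 3 UMIs in some library, with the lysate as a block. A gene was called depleted at a fold change below 1/1.5 and a Benjamini-Hochberg adjusted p below 0.05, and enriched in the mirror case. Of the 37 members, 22 could be tested, which are 8 mRNAs, 2 rRNAs and 12 tRNAs. In fRIP, 18 of the 22 were depleted, against 10.7% of all genes tested, and 0 were enriched, against 8.80%. In UV-RIP, 13 of the 22 were depleted, against 5.53% of all genes, and 0 were enriched, against 0.680%. One of the 22, mt-Ti, the isoleucine tRNA, reached 3 UMIs in inputs alone, so the filter favoured a downward fold change for it. In fRIP it had 0 UMIs in the 4 IP libraries and 10 in the 4 inputs, at least 4.53-fold lower with a floor of 3 UMIs over the IP group, and without it 17 of 21 were depleted. The median log2 fold change of these 21 was -2.51 in fRIP and -1.35 in UV-RIP, where 13 of the 21 were depleted, beside -0.03 and -0.17 over all genes tested.

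Both rRNAs were depleted with both crosslinkers. mt-Rnr2 (chrM:1094-2675, plus strand) had 10.8, 4.86, 5.47 and 5.31 CPM in the fRIP IP of replicates 3 to 6 and 118, 87.5, 58.8 and 89.1 CPM in the inputs, a log2 fold change of -3.76 (SE 0.12, adjusted p = 2.38e-16 by edgeR). In UV-RIP it had 11.5, 18.9, 24.5 and 26.0 CPM in the IP and 122, 105, 106 and 114 CPM in the inputs, a log2 fold change of -2.45 (SE 0.053). Its log2 fold change in fRIP was below those of all tested mRNAs, and IP and input were far apart in both crosslinkers.

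mt-Rnr1 (chrM:70-1024, plus strand) had 11.2, 5.11, 3.44 and 2.82 CPM in the fRIP IP and 51.1, 72.2, 36.0 and 49.2 CPM in the inputs, a log2 fold change of -3.29 (SE 0.19, adjusted p = 9.68e-12 by edgeR). The UV-RIP libraries had 6.61, 10.3, 15.6 and 19.2 CPM in the IP and 56.7, 37.8, 45.1 and 35.8 CPM in the inputs, a log2 fold change of -1.73 (SE 0.064, adjusted p = 4.37e-154 by edgeR). Its log2 ratio in the single UV-RIP pairs ranged from -3.10 to -0.90 with an SD of 0.93 over 4 pairs, which is far more than that SE conveys. For both rRNAs and the 7 abundant mRNAs the UV-RIP SE of the fit was smaller than the standard error of the 4 pair ratios, and for 6 of these genes p was too small to be computed as other than 0, so no adjusted p is printed for them.

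All 8 tested mRNAs were depleted in fRIP, with log2 fold changes from -3.24 (mt-Nd2) to -1.96 (mt-Nd3) and a largest adjusted p of 3.16e-05 by edgeR. In UV-RIP, 7 of 8 were depleted, from -2.84 (mt-Nd2) to -1.08 (mt-Nd6). mt-Nd3 had 1 to 5 UMIs in the UV-RIP IP and 3 to 9 in the inputs, and its log2 fold change of -1.13 (SE 0.55, adjusted p = 0.102 by edgeR) did not pass. With a stricter filter of 10 UMIs in 4 libraries mt-Nd3 was called depleted in UV-RIP. Its IP was also below the input in each of the 4 pairs. With the trend of fold change on gene length over all genes removed, the 8 mRNAs were still called in fRIP, from -2.61 (mt-Nd2) to -1.12 (mt-Nd3), with mt-Nd1 at -1.88, mt-Cytb at -2.21 and mt-Nd6 at -1.79, and mt-Rnr1 was at -2.64.

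mt-Nd2 (chrM:3914-4951, plus strand) had the lowest log2 fold change of the mRNAs with both crosslinkers. It had 109, 84.4, 48.2 and 93.1 CPM in the fRIP IP of replicates 3 to 6 and 1087, 463, 730 and 906 CPM in the inputs (log2 fold change -3.24, SE 0.14, adjusted p = 1.21e-13 by edgeR). With UV light it had 75.6, 119, 124 and 134 CPM in the IP and 777, 729, 878 and 815 CPM in the inputs (log2 fold change -2.84, SE 0.041). The UV-RIP levels of both groups were tight, apart from the IP of replicate 3.

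mt-Co1, the most abundant of the mRNAs, lies at chrM:5328-6872 on the plus strand and had a smaller fold change. It had 1730, 1417, 793 and 1437 CPM in the fRIP IP and 7585, 4556, 6351 and 6717 CPM in the inputs (log2 fold change -2.26, SE 0.13, adjusted p = 7.83e-12 by edgeR). In UV-RIP it had 2215, 2553, 2555 and 2527 CPM in the IP and 5984, 5282, 6231 and 6169 CPM in the inputs (log2 fold change -1.26, SE 0.034). IP and input did not overlap with either crosslinker.

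mt-Nd6 (chrM:13552-14070), the only mRNA coded on the minus strand, differed between the crosslinkers. It had 63.1, 33.1, 32.4 and 48.6 CPM in the fRIP IP and 265, 316, 219 and 223 CPM in the inputs (log2 fold change -2.57, SE 0.13, adjusted p = 2.31e-12 by edgeR). In UV-RIP it had 90.1, 101, 97.0 and 101 CPM in the IP and 214, 194, 210 and 208 CPM in the inputs (log2 fold change -1.08, SE 0.042). In UV-RIP the IP was close to a common level in all 4 plates, 2.12-fold below the input.

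mt-Nd1, mt-Nd4, mt-Nd5 and mt-Cytb lay between these. Their log2 fold changes were -2.53, -2.59, -2.51 and -2.83 in fRIP and -2.04, -2.16, -1.92 and -2.33 in UV-RIP. Each had its IP below its input in every pair of both crosslinkers.

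**Figure D3:**
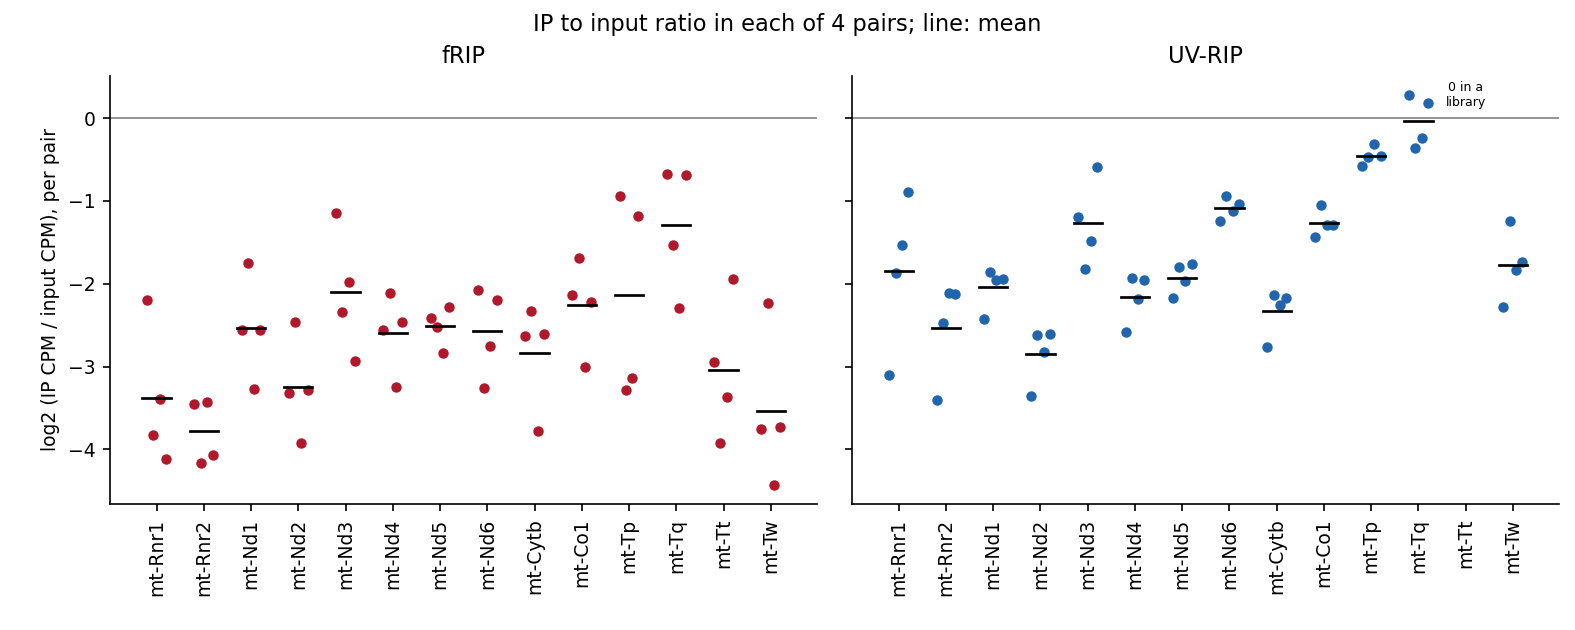
Log2 ratio of IP to input CPM (vertical axis) in each of the 4 pairs of fRIP (left) and UV-RIP (right) for the rRNAs, the tested mRNAs and the 4 tRNAs that averaged 10 UMIs or more. Lines are means, mt-Tt has no ratio in UV-RIP because 1 IP library is at 0, and the points of mt-Tq in UV-RIP lie on both sides of 0.

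In fRIP 7 of the 11 tested tRNAs other than mt-Ti were depleted, with log2 fold changes from -3.60 to -0.90 and a median of -2.03. With the gene-length trend removed 5 of the 11 were depleted in fRIP, with a median of -0.86, and mt-Ta and mt-Tq were no longer called. The share of all genes called in that fit is not given here. The trend is poorly known at the length of a tRNA, since only 5 nuclear genes of 75 bases or less averaged 10 UMIs or more. In UV-RIP 4 of the 11 were depleted, and the log2 fold changes ran from -2.30 to 0.80 with a median of -0.22. The 4 depleted tRNAs, mt-Tl1, mt-Tm, mt-Tw and mt-Tt, are all coded on the plus strand. These are all 4 tested plus-strand tRNAs other than mt-Ti, whereas 0 of 7 tested minus-strand tRNAs were called, against 5.53% of all genes tested, a share at which 0 of 7 would not stand out. The call of mt-Tm was lost with TMM scaling, with the gene-length trend removed and without replicate 3, 5 or 6. It was also lost without Gm26917 and Gm42418 in the library sizes, with no count filter and with all 16 libraries in 1 fit. DESeq2 on total UMIs called mt-Tw and gave no adjusted p for the other 3, and with median-of-ratios scaling it gave none for any of the 4.

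mt-Tq, the glutamine tRNA of the minus strand, had the most UMIs of the tRNAs in the UV-RIP IP. It had 1.27, 1.49, 1.28 and 1.56 CPM in the UV-RIP IP of replicates 3 to 6 and 1.04, 1.92, 1.51 and 1.37 CPM in the inputs. The groups overlapped, and the log2 fold change was -0.06 (SE 0.23, adjusted p = 0.90 by edgeR), with 88 UMIs in the 4 IP libraries and 76 in the 4 inputs. In fRIP it had 2.20, 1.26, 0.754 and 2.32 CPM in the IP and 3.51, 3.66, 3.69 and 3.74 CPM in the inputs, where the log2 fold change was -1.21 (SE 0.22, adjusted p = 7.49e-05 by edgeR). With the gene-length trend removed, the fRIP value was -0.05 (adjusted p = 0.91 by edgeR) and no longer a call.

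mt-Tp, the proline tRNA of the minus strand, had 0.914, 1.56, 1.40 and 1.16 CPM in the UV-RIP IP and 1.36, 2.16, 1.74 and 1.59 CPM in the inputs. The log2 fold change was -0.44 (SE 0.22, adjusted p = 0.116 by edgeR), and the IP was lower in all 4 pairs. In fRIP it had 2.03, 0.730, 0.566 and 1.49 CPM in the IP and 3.90, 7.10, 4.99 and 3.38 CPM in the inputs (log2 fold change -2.03, SE 0.28, adjusted p = 1.78e-06 by edgeR). The fRIP pairs differed widely, from -3.28 to -0.94. Corrected for gene length, the fRIP log2 fold change was -0.86 (adjusted p = 0.0187 by edgeR), still a call.

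mt-Tw, the tryptophan tRNA of the plus strand, had 0.281, 0.543, 0.426 and 0.347 CPM in the UV-RIP IP and 1.36, 1.28, 1.51 and 1.16 CPM in the inputs (log2 fold change -1.71, SE 0.33, adjusted p = 9.67e-07 by edgeR). In fRIP it had 0.338, 0.195, 0.141 and 0.221 CPM in the IP and 4.55, 0.914, 3.04 and 2.94 CPM in the inputs (log2 fold change -3.60, SE 0.32, adjusted p = 3.52e-09 by edgeR). The IP stayed below the input in both, and input replicate 4 of fRIP was far below the other inputs. With the gene-length trend removed its fRIP log2 fold change was -2.44.

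mt-Tt, the threonine tRNA of the plus strand, lies next to mt-Tp on the chromosome, with no base between them, and is coded on the other strand. In UV-RIP it had 1, 0, 2 and 4 UMIs in the IP and 6, 6, 10 and 8 in the inputs (log2 fold change -2.30, SE 0.60, adjusted p = 0.000501 by edgeR). In fRIP it had 6, 8, 4 and 11 UMIs in the IP and 40, 84, 27 and 32 in the inputs (log2 fold change -3.03, SE 0.29, adjusted p = 1.46e-08 by edgeR). Its fRIP log2 fold change was -1.86 with the gene-length trend removed, and its UV-RIP value -2.98 without replicate 6. Without replicates 3, 4 and 5 the lowest plus-strand tRNA in UV-RIP other than mt-Ti was at -2.24, -2.01 and -2.19, so mt-Tt was no lower there. The neighbours thus differed in UV-RIP, 79 UMIs in the IP and 89 in the inputs for mt-Tp against 7 and 30 for mt-Tt.

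Over the tested members the division by strand was seen in UV-RIP and was noticed after the values were known, so it is given as a description with no test. The 13 plus-strand genes other than mt-Ti had log2 fold changes from -2.84 to -1.13 with a median of -1.92. The 8 minus-strand genes, 7 tRNAs and mt-Nd6, had values from -1.08 to 0.80 with a median of -0.02. The ranges were apart only by the gap between mt-Nd3 (-1.13, SE 0.55) and mt-Nd6 (-1.08, SE 0.042), and they overlapped without replicate 4, with mt-Nd3 at -1.06 and mt-Nd6 at -1.13, and without replicate 5, with -0.97 and -1.07. They also overlapped without replicate 6, with the highest plus-strand gene, a tRNA, at -0.88 and mt-Nd6 at -1.10. In fRIP the 13 plus-strand genes other than mt-Ti ranged from -3.76 to -1.96 with a median of -2.83 and the minus-strand genes from -2.57 to -0.90 with a median of -1.62, and the ranges overlapped. With the gene-length trend removed the fRIP medians were -2.01 for the 13 plus-strand genes and -0.53 for the 8 minus-strand genes, of which 2 were above 0. Neighbouring genes of a strand share a precursor RNA and are not independent.

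Of the minus-strand tRNAs, mt-Ta, mt-Tn, mt-Tc, mt-Ty and mt-Te had means under 10 UMIs and SEs between 0.77 and 1.21 in UV-RIP. The strand setting of the authors' counting is not given in the sources used here. If the strand was not used, UMIs of RNA from the opposite strand are part of these counts, for mt-Nd6 and the minus-strand tRNAs as for the other members, and the strands cannot be told apart.

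**Figure D4:**
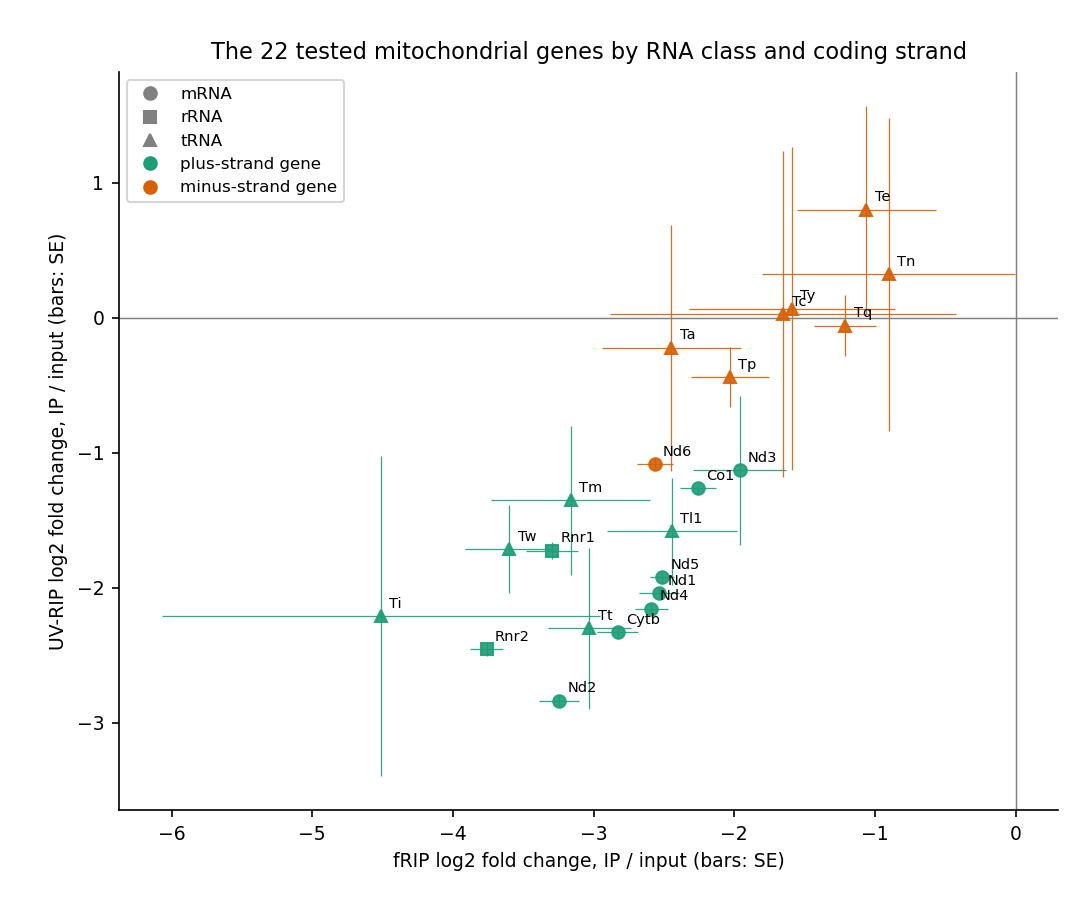
Log2 fold change of IP against input in fRIP (horizontal axis) and UV-RIP (vertical axis) for the 22 tested genes, with the symbol giving the RNA class, the colour giving the coding strand, and bars for the SE. On the UV-RIP axis mt-Nd6, the lowest minus-strand gene at -1.08, lies level with mt-Nd3, the highest plus-strand gene at -1.13, within the SE of 0.55 of mt-Nd3, and on the fRIP axis the strands overlap. The fitted fRIP value of mt-Ti, at the far left, rests on an IP group with 0 UMIs.

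With the chromosome as a whole lower in the IP, the composition within it was examined. Of the UMIs on mitochondrial mRNAs, mt-Co1 had 44.0%, 43.5%, 45.6% and 45.9% in the fRIP inputs of replicates 3 to 6 and 52.1%, 52.6%, 51.2% and 51.6% in the IP. In UV-RIP it had 44.5%, 43.2%, 44.0% and 44.6% in the inputs and 62.5%, 58.6%, 57.9% and 56.6% in the IP. IP and input did not overlap in either crosslinker, and its share was above that of the input in 4 of 4 pairs of both. The exact paired permutation test (two-sided) cannot go below p = 0.125 with 4 pairs, and it gave 0.125 here (0.159 after Benjamini-Hochberg adjustment over the 14 shares tested), so these differences cannot pass a threshold of 0.05.

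mt-Nd2 differed the other way, with 5.54% ± 0.89 in the input and 3.21% ± 0.11 in the IP of fRIP and 5.96% ± 0.18 and 2.67% ± 0.37 in UV-RIP (mean ± SD, n = 4), lower in the IP in 4 of 4 pairs of both. mt-Cytb had 13.3% ± 0.90 in the input and 10.3% ± 0.82 in the IP of fRIP and 13.5% ± 0.17 and 8.60% ± 0.84 in UV-RIP, again lower in 4 of 4 pairs. mt-Nd6 had 1.54% ± 0.053 in the input and 2.33% ± 0.15 in the IP of UV-RIP, higher in the IP in 4 of 4 pairs. In fRIP mt-Nd6 had 1.54%, 3.02%, 1.57% and 1.53% in the inputs and 1.90%, 1.23%, 2.09% and 1.75% in the IP, and the input of replicate 4 alone stood above all the IP libraries. That input also had the highest mt-Nd5 share, 14.1% against 10.1% to 10.7%, and the lowest mt-Nd1 share, 14.6% against 17.6% to 18.7%.

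As a further alternative, chosen after the data were seen, the UMIs on the 37 genes were taken as the library size, which gives each gene's change relative to the mitochondrial total. On this scale most genes are higher in the IP, 86.4% of all genes tested by the call in fRIP and 77.2% in UV-RIP, so the values of the members are read against each other and their counts are not a result about the members. In UV-RIP 4 members were called higher on the log2 scale, mt-Tq by 1.60 (SE 0.24, adjusted p = 4.30e-11 by edgeR), mt-Tp by 1.21 (SE 0.24, adjusted p = 6.83e-07), mt-Nd6 by 0.60 (SE 0.12, adjusted p = 4.10e-07) and mt-Te, the glutamate tRNA with few UMIs that is named after its value was seen, by 2.44 (SE 0.76, adjusted p = 0.00203). As lower, against 0.0349% of all genes, 3 passed, mt-Nd2 with -1.16 (SE 0.12, adjusted p = 1.86e-22), mt-Rnr2 with -0.82 and mt-Cytb with -0.65. The value of mt-Co1 was 0.42 (SE 0.11, adjusted p = 0.000151), which is under the 1.5-fold that a call needs. In fRIP mt-Tq was higher by 1.21 (SE 0.33, adjusted p = 0.000292), and mt-Rnr2 (-1.30), mt-Rnr1 (-0.89), mt-Tw (-1.09) and mt-Nd2 (-0.77) were lower, against 0.0262% of all genes, and mt-Co1, at 0.22 (adjusted p = 0.301), was not called there either. The change differed between the crosslinkers for mt-Rnr1 (-0.74, adjusted p = 0.0363 by edgeR) and mt-Nd6 (-0.68, adjusted p = 0.0301), both lower in fRIP, against 0.0305% of all genes, and 0 members were higher in fRIP, against 47.8%.

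**Figure D5:**
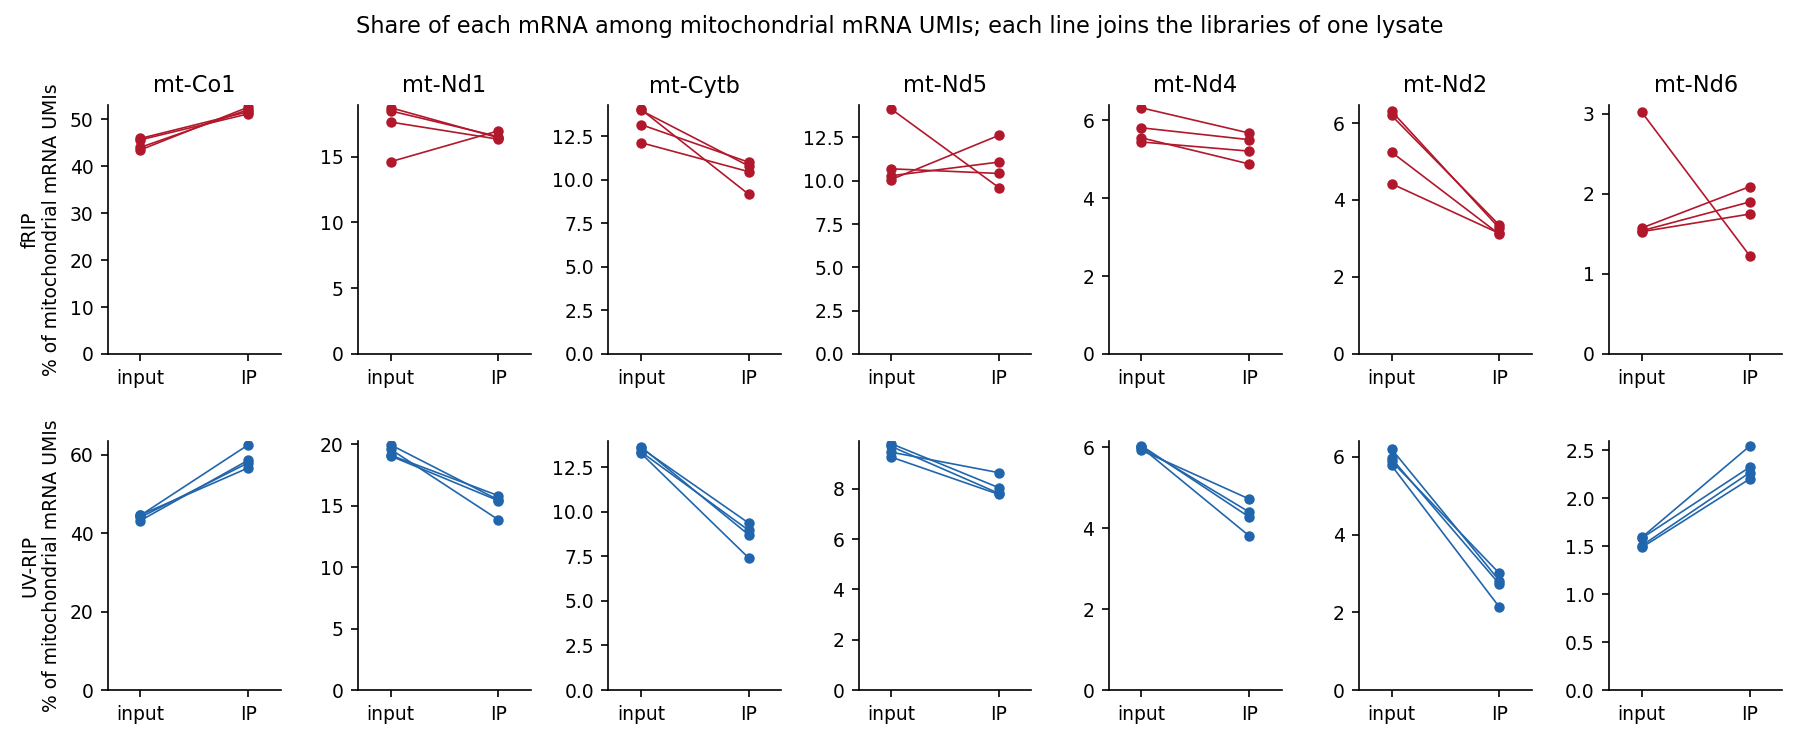
Percent of the mitochondrial mRNA UMIs on each of 7 mRNAs (vertical axes, starting at 0) in input and IP, with a line joining the libraries of each lysate for fRIP (top) and UV-RIP (bottom). mt-Co1 is higher and mt-Nd2, mt-Nd4 and mt-Cytb are lower in the IP on all lines, and mt-Nd6 is higher in UV-RIP on all lines and in 3 of 4 in fRIP.

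The difference between the crosslinkers was tested as the interaction of IP and crosslinker over all 16 libraries. At an adjusted p below 0.05, 11 of the 22 members had a lower log2 fold change in fRIP than in UV-RIP, against 8.07% of all genes tested, and 0 went the other way, against 18.6%. The estimate was below 0 for all 21 members other than mt-Ti, with a median of -1.24 beside 0.15 over all genes, and for 15 of the 21 with the gene-length trend removed. Both rRNAs passed, mt-Rnr1 with a difference of -1.505 (SE 0.32, adjusted p = 0.000756 by edgeR) and mt-Rnr2 with -1.27 (SE 0.20, adjusted p = 2.38e-05). The value of mt-Rnr1 was -2.36 without replicate 3 and -0.96 without replicate 6, past the threshold in both. Of the tRNAs mt-Tw (-1.89, SE 0.49), mt-Tp (-1.59, SE 0.42) and mt-Tq (-1.15, SE 0.34) passed. Mean levels of mt-Tp were 1.20 CPM in the fRIP IP and 1.26 CPM in the UV-RIP IP, beside 4.84 and 1.71 CPM in the inputs. For mt-Tq they were 1.64 and 1.40 CPM in the IP and 3.65 and 1.46 CPM in the inputs. For mt-Tw they were 0.224 and 0.399 CPM in the IP and 2.86 and 1.33 CPM in the inputs. The difference for mt-Tp and mt-Tq thus lay in the inputs more than in the IP.

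Of the mRNAs mt-Nd6 differed most, by -1.48 (SE 0.15, adjusted p = 1.41e-07 by edgeR), followed by mt-Co1 at -0.99 (SE 0.15, adjusted p = 2.08e-05) and mt-Nd5 at -0.59 (SE 0.10, adjusted p = 8.17e-05). mt-Cytb (-0.50), mt-Nd1 (-0.49) and mt-Nd4 (-0.43) passed more narrowly, with adjusted p between 0.0372 and 0.0461. These 3 calls were lost with DESeq2 on total UMIs (adjusted p = 0.274, 0.259 and 0.232), where 8 of 22 were called, with median-of-ratios scaling in DESeq2 (0.124, 0.101 and 0.0718) and in edgeR with a stricter filter of 10 UMIs in 4 libraries (0.0952, 0.0894 and 0.0751). mt-Nd2 (-0.40, adjusted p = 0.118) and mt-Nd3 (-0.82, adjusted p = 0.401) did not pass. Without replicate 5 the count was 7 of 22, with mt-Cytb at -0.17, mt-Nd1 at -0.22, mt-Nd4 at -0.22 and mt-Tp at -1.26 no longer past the threshold. Without replicate 6, mt-Nd1 at -0.45 and mt-Nd4 at -0.41 also lost the call, and without replicate 4 mt-Nd2 gained it at -0.58. mt-Nd2 was called as well with TMM scaling and without Gm26917 and Gm42418 in the library sizes. With the gene-length trend removed 4 of 22 were called, mt-Rnr1 (-0.95), mt-Rnr2 (-0.80), mt-Nd6 (-0.83) and mt-Co1 (-0.52), and no tRNA was, with mt-Tw at -0.95 (adjusted p = 0.214 by edgeR), mt-Tp at -0.63 (adjusted p = 0.359) and mt-Tq at -0.19 (adjusted p = 0.782). The share of all genes called in that fit is not given here, so the count of 4 is no result about the members as a group.

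The inputs were compared with each other, since the crosslinkers could differ before any IP. Crosslinker and plates go together in this comparison and cannot be told apart. The tRNAs differed and the abundant mRNAs did not pass: 6 of 12 tRNAs (mt-Tq, mt-Tw, mt-Ta, mt-Te, mt-Tt and mt-Tp) and mt-Nd3 were higher in the fRIP input, 7 of the 22 members against 10.6% of all genes tested. By the same test 0 were lower, against 9.44%. The summed tRNA level was 15.6 to 22.4 CPM in the fRIP inputs and 6.42 to 7.87 CPM in the UV-RIP inputs, with no overlap, whereas the summed mRNA levels overlapped at 10475 to 17227 and 12236 to 14163 CPM.

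Among the tRNAs mt-Tt was 5.49-fold higher in the fRIP input (log2 2.46, SE 0.38, adjusted p = 7.76e-05 by edgeR), mt-Tp 2.82-fold (log2 1.49, SE 0.24, adjusted p = 0.000113) and mt-Tq 2.49-fold (log2 1.31, SE 0.19, adjusted p = 5.22e-05). mt-Nd3 was 3.26-fold higher (log2 1.70, SE 0.30, adjusted p = 0.000312), on 18 to 25 UMIs against 3 to 9. The 7 abundant mRNAs lay between -0.07 and 0.31 on the log2 scale. The members that differed are short genes or have few countable windows. With the gene-length trend removed 2 of the 22 were higher, mt-Tt (1.45) and mt-Nd3 (0.95), and 3 lower, mt-Rnr2 (-0.86), mt-Nd1 (-0.68) and mt-Nd2 (-0.60). In that fit mt-Tp (0.48), mt-Tq (0.31) and mt-Tw (0.095) were no longer called. The share of all genes called in it is not given here, so these counts are no result about the members as a group. The call of mt-Tw was also lost without replicate 3 (0.79), 5 (1.15) or 6 (1.03). Only 5 nuclear genes of 75 bases or less averaged 10 UMIs or more, so this trend is poorly known at the length of a tRNA.

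Nuclear genes for copying and transcribing mitochondrial DNA and for processing and degrading mitochondrial RNA were examined as a group. The 31 listed symbols stand for 30 genes, since Fastkd4 is another name of Tbrg4. Of these, 29 were found and 28 tested. Their mRNAs are made in the nucleus. In fRIP 11 of 28 were depleted, against 10.7% of all genes tested, and 0 enriched, against 8.80%, with a median log2 fold change of -0.32. The UV-RIP counts were 3 of 28 depleted, against 5.53%, and 0 enriched, against 0.680%, with a median of -0.25. Slirp, which encodes a partner of Lrpprc in stabilizing mitochondrial mRNAs, fell most in both, with log2 fold changes of -1.25 (SE 0.11) in fRIP and -0.82 (SE 0.077) in UV-RIP. Tefm, which encodes the mitochondrial transcription elongation factor, was called in both (-0.90 and -0.61), and Tfam, which encodes the protein that packages mitochondrial DNA, in fRIP (-0.69). Polrmt, the mitochondrial RNA polymerase gene, was at 31.1 CPM in the fRIP IP and 29.1 CPM in the input. The lowest of these 28 values, -1.25 in fRIP, was above the highest value of any mitochondrial mRNA there, -1.96.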

How the data were processed

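RNA from Sox2 IP and input of mESC was sequenced in 16 libraries, 4 per group. Reads were mapped with STAR by the study's methods, to mm10 per the labels, and those with several matches were dropped. The authors deposited raw counts, the number of UMIs on each gene body of GENCODE vM16. The versions of the tools and the strand setting are not given in the sources used here. From these counts, CPM and sums per RNA class were computed, and genes were tested in R 4.3.3 with edgeR 4.0.16 (quasi-likelihood, total UMIs as library size, Benjamini-Hochberg over 22936 genes, 3 or more UMIs in at least 1 library). DESeq2 1.42.0, other scalings, filters and fits and each replicate left out were alternatives. The scripts were tested on simulated data. IP and input with the same number come from 1 lysate by the study's methods, so the number was a block. Their deviations correlated at 0.114 to 0.595 in fRIP and 0.0279 to 0.435 in UV-RIP. Replicates differed by more than sampling noise (chi-square per degree of freedom 1.72 or more).

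All 37 members are accounted for, with values for the rRNAs, the mRNAs and the tRNAs averaging 10 UMIs or more, and the other tRNAs given by range. The members, the gene lists and the rule for named genes were chosen with earlier results of these data known. Windows of 34 bases were searched in annotated nuclear transcripts of GENCODE vM21 (GRCm38), in place of the genome sequence first planned, which was not used here. UMIs limit the precision, and a floor of 3 UMIs covers counting error only.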

Additional observations from a re-analysis of the deposited data

Results flagged for a closer look

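Of 73 groups of 4 values, 4 had 1 value that stood apart by Dixon's test, which by chance flags about 1 in 20 groups. The fRIP IP of replicate 3 had 21.9 CPM on the rRNAs, against 8.13 to 9.97 in the other IP libraries. The UV-RIP IP of replicate 3 had 3546 CPM on the mRNAs, against 4359 to 4465. The fRIP input of replicate 4 had 14.1% of its mitochondrial mRNA UMIs on mt-Nd5, against 10.1% to 10.7%, and 3.02% on mt-Nd6, against 1.53% to 1.57%.

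The change from input to IP differed between the crosslinkers by a test of the difference itself for 11 named members, all lower in fRIP. In fRIP relative to UV-RIP, the log2 fold change differed by -1.505 for mt-Rnr1, -1.27 for mt-Rnr2, -1.89 for mt-Tw, -1.59 for mt-Tp, -1.15 for mt-Tq, -1.48 for mt-Nd6, -0.99 for mt-Co1, -0.59 for mt-Nd5, -0.50 for mt-Cytb, -0.49 for mt-Nd1 and -0.43 for mt-Nd4. Plates and crosslinker go together, and their parts cannot be told apart.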

How the results depend on the processing

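The counts of depleted members stayed within 1.5 times of the reported ones, 15 to 18 in fRIP and 9 to 14 in UV-RIP, under all alternatives but 1. That 1, chosen after seeing the data, took the UMIs on the 37 genes as library size, which places the mRNAs near 0 by construction and is no check of the depletion. By it the medians of all genes were 2.43 in fRIP and 1.50004 in UV-RIP, 4 members were lower in fRIP, 3 in UV-RIP, and 2 differed between the crosslinkers. The count of members that differed between the crosslinkers, 11, was 7 with median-of-ratios scaling in DESeq2, which gave no adjusted p for 11 of the 22. It was 4 with the gene-length trend removed, and 7 to 12 with 1 replicate left out. With TMM scaling it was 12, as it was without Gm26917 and Gm42418 in the library sizes. Without the replicate block, the pairing by lysate, 18, 13 and 8 members were called in fRIP, UV-RIP and the difference between them, and mt-Nd1 (-0.50), mt-Nd4 (-0.42) and mt-Cytb (-0.46) lost the last call. TMM scaling moved the UV-RIP median of all genes tested to 0.0052 (-0.17 before), and the class ratios there to -1.4997 for mRNAs and -0.57 for tRNAs, with -0.60 for tRNAs without Gm26917 and Gm42418 in the library sizes.

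The UV-RIP value of mt-Tq, near 0, was 0.12 with TMM, 0.093 without Gm26917 and Gm42418, 0.19 with the length trend removed, 0.13 with DESeq2 and median-of-ratios, and -0.15 to 0.059 with 1 replicate left out. With the length trend removed, the difference between the crosslinkers changed sign for mt-Nd1 (0.064), mt-Nd2 (0.14), mt-Nd4 (0.068), mt-Cytb (0.029) and mt-Tt (0.21), and that between the inputs for mt-Rnr1 (-0.35), mt-Nd4 (-0.54), mt-Nd5 (-0.21), mt-Nd6 (-0.39), mt-Cytb (-0.53) and mt-Co1 (-0.43). For the inputs, mt-Nd4 also changed sign with TMM (-0.022), without Gm26917 and Gm42418 (-0.097) and with median-of-ratios (-0.017), and without these 2 genes so did mt-Cytb (-0.053) and mt-Co1 (-0.0071). With 1 replicate left out, the input differences ranged from -0.0080 to 0.41 for mt-Rnr1, -0.22 to 0.071 for mt-Nd1, -0.21 to 0.14 for mt-Nd2, -0.090 to 0.044 for mt-Nd4, -0.068 to 0.11 for mt-Cytb and -0.0047 to 0.17 for mt-Co1. The causes were not tested. With windows of 20 and 50 bases, mt-Nd3 had the lowest share among the 5 mRNAs found almost whole in nuclear transcripts, 98.2% and 97.99%.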
